A study of Rattus norvegicus with 6 samples.

Results

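Mitochondrial complex I, the NADH dehydrogenase that opens the respiratory chain, was followed in laser-captured retinal ganglion cells of the rat through the genes named Nduf. All probe sets with a single gene symbol starting with Nduf were taken, and each gene was represented by the probe set with the highest mean log2(value + 16) over the 6 arrays. This gave 42 genes from 46 probe sets, of 14217 genes with 1 symbol on the array; 38 had 1 probe set and 4 had more. The cells came from 3 adult male Brown Norway rats, in which Fluorogold injected into the superior colliculus had marked the ganglion cells of both eyes. Hypertonic saline in an episcleral vein had raised the pressure of 1 eye for 10 days, and the other eye was the control. From each eye 2000 cells were captured and 1 array was made, so there were 3 arrays of right eyes (OD) and 3 of left eyes (OS). No genetic change is named for these rats, and both eyes of a rat shared the tracer and its injection. The labels do not say which eye had raised pressure, so each difference below is OS minus OD within a rat and has no direction with respect to pressure.

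Complex I takes electrons from NADH, passes them to ubiquinone and uses the energy to move protons across the inner mitochondrial membrane. It is L-shaped: a matrix arm carries the flavin and iron-sulfur clusters, and a membrane arm carries the proton channels, whose core is encoded by mitochondrial DNA and whose many accessory subunits are nuclear. Ganglion cells have long axons, unmyelinated within the eye and crowded with mitochondria, and mutations of mitochondrial complex I genes are the usual cause of Leber hereditary optic neuropathy, a disease in which these cells die.

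Of 3 promoter elements searched, which the choice of members did not use, 1 was common in the family, and windows are shown to let it be seen in its place near the start of the genes. RefSeq promoters (build GRCr8, 250 bases before to 50 after the start of the gene) were matched for 40 of the 42 genes. The 8-base sequence AAGATGGC, a known binding sequence of the factor YY1, lay in 10 of the 40 (25.0%), against 3.17% of all 33469 promoters of the same length, searched on both strands. All 10 matches read in the direction of the gene and began between 1 base before the start and base 27 after it. The 10-base NRF1 sequence, which is its own reverse complement and stands in capitals in the Ndufa11, Ndufaf4 and Ndufaf5 windows, was in 3 of 40 (7.50%, against 0.852% of all), and CCGGAAGT, bound by ETS factors such as GABPA, in 3 of 40 (7.50%, against 3.81% of all; both strands). NRF1 and GABPA are known regulators of nuclear genes for respiration. Windows of 30 bases are given for a matrix arm core gene, 3 accessory genes and an assembly factor with the YY1 sequence, and for the 3 genes with the NRF1 sequence, each 5′ to 3′ along the gene with the match in capitals. They lie at chr7:10110476-10110505 (minus strand) for Ndufs7, chr2:47794892-47794921 (minus) for Ndufs4, chr1:31797412-31797441 (plus) for Ndufs6, chr4:161374142-161374171 (minus) for Ndufa9, chr10:105879899-105879928 (plus) for Ndufaf8, chr9:1637507-1637536 (plus) for Ndufa11, chr5:43401627-43401656 (plus) for Ndufaf4 and chr3:147961587-147961616 (plus) for Ndufaf5.
Ndufs7: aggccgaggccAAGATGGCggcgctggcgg
Ndufs4: ttgcccacaggAAGATGGCggcggtctcaa
Ndufs6: gggtcgtcggcAAGATGGCggcggcgctga
Ndufa9: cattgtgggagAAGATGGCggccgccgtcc
Ndufaf8: aggcagggcccAAGATGGCggcgcccacaa
Ndufa11: cctgcgctgtGCGCATGCGCatgcgcacag
Ndufaf4: gcagtagtccGCGCATGCGCccctgtggaa
Ndufaf5: agtccctttgGCGCATGCGCacaatagaaa

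The deposited values are linear probe set intensities, and each array's background limit was the 95th percentile of its 27 controls for bacterial transcripts not added to the samples. It ran from 261 to 591 over the arrays. Ganglion cell markers were present: 6 of the 10 on the array (Nefh, Nefm, Rbpms, Rbpms2, Slc17a6 and Thy1) exceeded the limit on all 6 arrays and none lay below it on every array. Genes listed as markers of other retinal cells were detected too. Above the limit on all 6 arrays were 4 of 6 amacrine, 3 of 6 Müller glia, 2 of 8 photoreceptor, 1 of 3 bipolar, 1 of 5 pigment epithelium and 0 of 6 microglia markers. The pigment epithelium one was Rlbp1, which is also counted among the Müller glia markers. The 4 amacrine ones were Calb2, Gad1, Pax6 and Tfap2b. Which cells gave these signals was not tested. In such samples fewer cells of a type and less RNA per cell cannot be told apart.

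Complex I signal was commonly detected, but less often in some eyes than in others. Rat 1 had 37 of the 42 genes above the limit in OD against 23 in OS, rat 2 had 25 against 22, and rat 3 had 32 against 30. The detected share was thus lower in OS in each rat, as it was for all genes with 1 symbol. Over those, rat 1 had 65.6% detected in OD against 53.0% in OS, rat 2 had 41.1% against 40.8%, and rat 3 had 61.9% against 54.1%. The limit itself differed between the eyes, so these shares do not measure signal alone. It was 261 in OD against 400 in OS of rat 1, 591 against 547 in rat 2 and 293 against 409 in rat 3. The median value of the 42 genes was 754 in OD against 569 in OS of rat 1, 752 against 564 in rat 2 and 772 against 610 in rat 3. On all 6 arrays 12 of the 42 genes (28.6%) exceeded the limit, against 15.7% of all genes. A further 10 did so on 5 arrays, 18 on 1 to 4 arrays, and Ndufa11 and Ndufb8 on none. The brightness of different probe sets does not rank their transcripts, so each gene is compared only with itself.

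**Figure D1:**
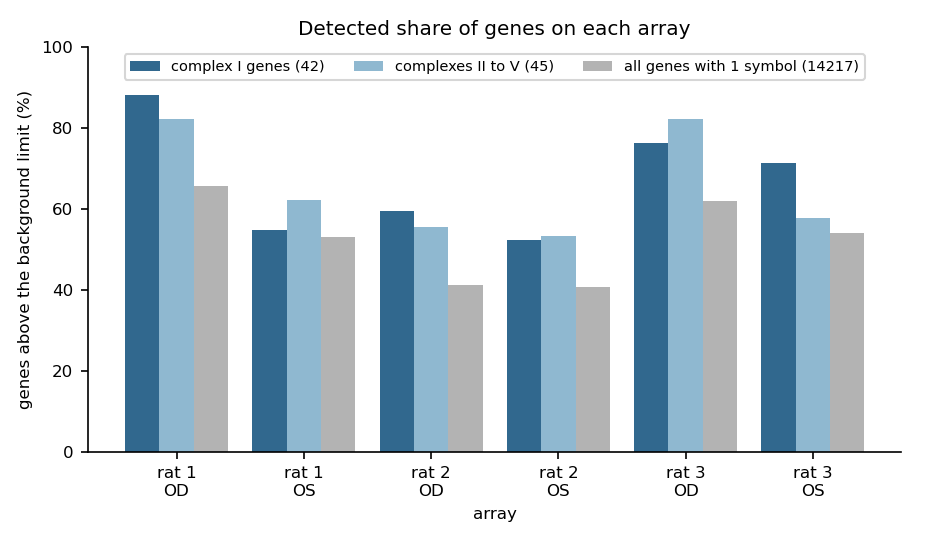
Bars give the percent of genes above each array's background limit (y axis) for the 42 complex I genes, 45 genes of complexes II to V and all 14217 genes with 1 symbol, on each of the 6 arrays (x axis). Complex I stood above the share of all genes on every array, and was highest in OD of rat 1 at 88.1% and lowest in OS of rat 2 at 52.4%.

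Whether the expression of these genes differed between the eyes was tested with limma across all 15521 probe sets in the brighter part of the table, with the rat as a block. Of the 42 genes, 31 were in that part, and 11 had a representative too dim to be tested. No complex I gene passed the adjusted threshold of 0.05 (smallest limma adjusted p = 0.394), where 0.0129% of all tested probe sets passed. At an unadjusted p under 0.05 there were 2 genes, Ndufb2 and Ndufa1, both lower in OS, which is 2 of 31 where 6.91% of all tested probe sets passed (4.31% lower and 2.60% higher in OS).

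The direction of the values nevertheless leaned to OS being lower. The mean of OS was the lower one for 25 of the 42 genes (59.5%, where the share over all genes was 50.7%), and the median log2 difference was -0.42, against -0.02 over all genes. The share with a lower mean was 53.7% over all tested genes and 57.8% over genes above the limit on all 6 arrays. The family's share was near the latter, while the median of those bright genes was -0.10. By rat the median of complex I was -0.52, -0.21 and -0.25, with 29, 24 and 22 genes lower in OS of rats 1 to 3. In all 3 rats 10 genes (23.8%) were lower in OS, where the share over all genes was 13.8%, and 4 (9.52%) were higher, where it was 14.0%. Of the 10, 3 had no OS array above the background limit, and of the 4, Ndufab1 and Ndufb8 had no OD array above it. Every OS value lay below every OD value for 5 genes (Ndufs1, Ndufa11, Ndufc2, Ndufb10 and Ndufb11) and above it for 1 (Ndufb8), where the shares over all genes were 5.30% and 5.16%. The SD over rats was larger than the mean difference for 33 of the 42 genes. Without rat 1 the median became 0.03, so the sign of the family's median depended on that rat. In both other rats 14 genes were lower and 10 higher, where the shares over all genes were 24.9% and 25.0%. Among genes above the limit on all 6 arrays, 5 of 12 complex I genes were lower in all 3 rats and 1 was higher, where the shares over all such genes were 20.4% and 11.5%.

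**Figure D2:**
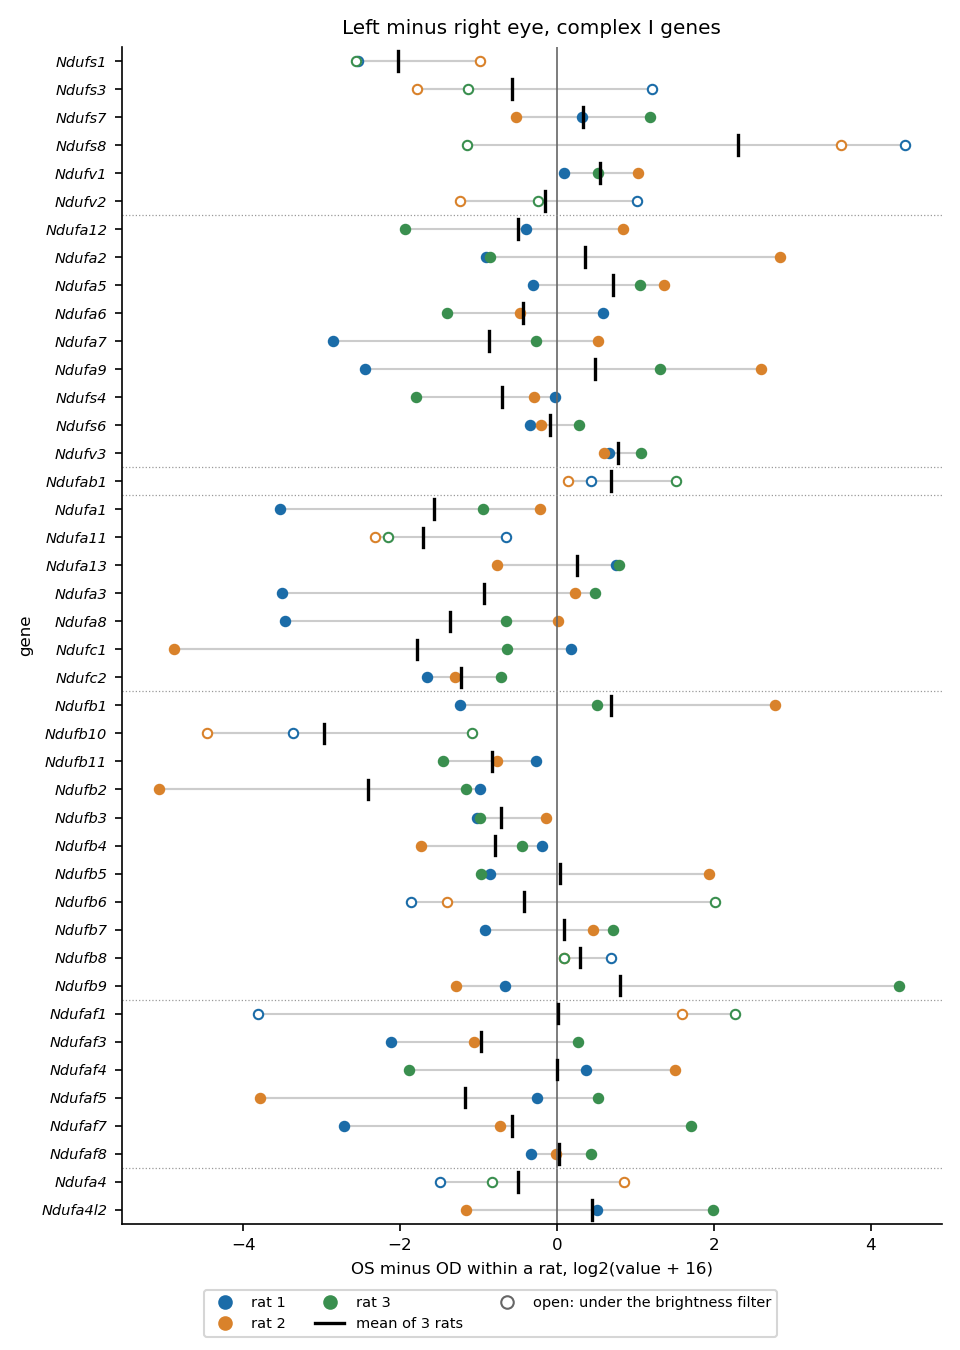
Each row is a complex I gene, in blocks by its place in the complex; points give the log2 difference of OS minus OD in each of the 3 rats (x axis), open where the gene was too dim to be tested, and black bars the mean. The rats often disagree for a gene, as for Ndufs8, Ndufb9 and Ndufaf1, while most differences of the membrane arm genes lie to the left of 0.

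Some other genes and controls also differed between the eyes, and their part in the result was not tested. The 3' over 5' signal of the beta-actin control, a sign of shorter RNA when high, stood higher in OS than in OD of each rat, with a log2 difference of 1.40 ± 0.58 (SD, n = 3), while that of Gapdh differed by -0.59 ± 2.08. The 5' beta-actin value was below the background limit in OS of rat 1, OD of rat 2 and both eyes of rat 3. The size of the beta-actin difference is therefore uncertain. The summed value of the 10 ganglion cell markers ran from 19688 to 25775 in OD and from 9531 to 9984 in OS, with no overlap. For the 6 amacrine markers the sums were 25635 to 71998 in OD and 11106 to 23474 in OS, and for the 5 pigment epithelium markers 6485 to 24079 and 2366 to 5517, again without overlap. Photoreceptor sums over 8 markers overlapped, at 9582 to 36752 in OD and 9009 to 23324 in OS. So did those of the 6 Müller glia markers (5870 to 18501 and 6700 to 16388), the 3 bipolar markers (1216 to 2184 and 1453 to 2279) and the 6 microglia markers (1650 to 3723 and 1990 to 11437). Rlbp1 entered both the Müller glia and the pigment epithelium sums.

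The core of the matrix arm, which binds NADH and carries the electrons to ubiquinone, showed no common direction over the 6 genes analysed here, since 3 means lay below 0 and 3 above. Ndufv1, the subunit that binds NADH and flavin, read 1140.5, 393.9 and 1039.2 in OD of rats 1 to 3 and 1221.1, 826.8 and 1498.5 in OS. OS exceeded OD in 3 of 3 rats, by 0.55 ± 0.47 (log2, SD, n = 3; limma adjusted p = 0.869), though the 2 eyes overlapped as groups. OD of rat 2, which gave the largest difference, was below the background limit. Ndufs7, which holds the last iron-sulfur cluster before ubiquinone, read 725.6, 874.7 and 482.7 in OD and 907.7, 605.8 and 1121.1 in OS. It was above the background limit on all 6 arrays and differed by 0.33 ± 0.85 (limma adjusted p = 0.935), with rat 2 opposite to the others and a mean of -0.10 without rat 3.

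The other core genes were dim. Ndufs1, the largest subunit, with several iron-sulfur clusters, read 307.7, 198.1 and 567.7 in OD and 39.6, 92.5 and 82.9 in OS. The eyes did not overlap, but no OS value reached the background limit and neither did that of OD in rat 2, so no fold is given. Ndufs3, a core subunit, read 108.2, 150.7 and 575.5 in OD and 272.3, 32.5 and 254.2 in OS, above the limit only in OD of rat 3. Ndufv2, a partner of Ndufv1 with an iron-sulfur cluster, read 289.4, 724.8 and 60.7 in OD and 603.2, 297.5 and 48.9 in OS, and both eyes of rat 3 were low.

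Ndufs8, another iron-sulfur subunit, had the widest swing of the core: 31.2, 74.8 and 412.7 in OD and 1004.9, 1098.4 and 178.5 in OS. OS was high in rats 1 and 2 and low in rat 3, and the mean of 2.30 ± 3.01 was smaller than its spread. The low value of each rat was below the background limit, so the size is uncertain. It was not among the tested probe sets.

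Accessory subunits of the matrix arm, 9 analysed here and all tested, were divided between 5 means below 0 and 4 above, with a median of -0.09. Ndufv3, a small subunit beside Ndufv1, read 1827.4, 1894.5 and 327.6 in OD and 2913.8, 2883.3 and 705.9 in OS. All 6 values exceeded the background limit and OS was higher in each rat by a similar amount, 0.78 ± 0.25 (limma adjusted p = 0.799); rat 3 was low in both eyes. Its other probe set, below the limit on all 6 arrays, had a mean of -0.41 ± 1.68. Ndufs6, a zinc-binding subunit, read 1555.5, 1600.7 and 2243.8 in OD and 1224.4, 1389.6 and 2734.1 in OS, one of the steadiest members at -0.09 ± 0.33 (limma adjusted p = 0.981), and turned to 0.04 without rat 1.

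Ndufs4, an accessory subunit whose loss causes Leigh-like disease in people and mice, was lower in OS in 3 of 3 rats. Its values were 825.7, 746.3 and 2027.8 in OD and 811.6, 608.9 and 571.5 in OS, so rats 1 and 2 hardly differed and the mean of -0.70 ± 0.96 (limma adjusted p = 0.846) came mainly from rat 3. Without rat 3 the mean was -0.16. Ndufa5 read 372.0, 156.2 and 194.8 in OD and 299.5, 428.7 and 424.7 in OS (0.71 ± 0.89, limma adjusted p = 0.909). Only OD of rat 1 and OS of rat 3 exceeded the background limit, so the size is uncertain.

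For Ndufa7 and Ndufa9 the answer depended on the probe set. Ndufa7 read 1903.9, 1389.5 and 2822.0 in OD and 249.2, 2005.1 and 2350.3 in OS (-0.86 ± 1.77, limma adjusted p = 0.801), with OS of rat 1 alone below the limit and a mean of 0.13 without rat 1. Its other probe set gave 290.5, 27.9 and 452.8 in OD and 1024.5, 773.8 and 522.3 in OS, where OS exceeded OD in each rat and most in rat 2 (mean difference 2.04). Ndufa9, a subunit at the joint of the arms, read 1078.1, 82.1 and 426.1 in OD and 184.9, 577.4 and 1087.2 in OS (0.49 ± 2.62, limma adjusted p = 0.936). Its other probe set was above the limit only in OD of rat 3 and had a mean of -1.65 ± 1.71. The means of the remaining accessory genes, Ndufa2, Ndufa6 and Ndufa12, lay between -0.50 and 0.36 with no common direction over rats.

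The membrane arm differed most between the eyes in its medians. Over the 18 nuclear genes analysed here the median log2 difference was -0.81, with -0.95, -0.77 and -0.64 in rats 1 to 3, against -0.09 over the 15 matrix arm genes, whose medians by rat were -0.02, 0.52 and -0.26. In all 3 rats 8 of the 18 (44.4%) were lower in OS and 1 was higher, against 2 lower and 2 higher of the 15 (13.8% and 14.0% of all genes). Among all genes above the background limit on all 6 arrays these shares were 20.4% and 11.5%. Of the 8, Ndufa11 was above the limit on no array and Ndufb10 on no OS array. The 1 higher, Ndufb8, was above it on no array. The membrane arm median ran from -1.23 without rat 3 to -0.44 without rat 1, and was -0.77 to -0.85 with other offsets or quantile normalization. The difference between the arms was not tested, since the grouping was made with earlier results of these data known.

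In the proximal part of the membrane arm, next to the matrix arm, the mean was lower in OS for 6 of 7 genes (50.7% of all genes) and 3 were lower in all 3 rats (13.8% of all genes), with a median of -1.37. Ndufa1, a small single-span subunit encoded on the X chromosome, read 5498.5, 1324.5 and 8825.9 in OD and 462.2, 1138.5 and 4581.1 in OS. All 6 values exceeded the background limit, OS was lower in 3 of 3 rats and the difference was -1.56 ± 1.74 (limma adjusted p = 0.522). The difference was -3.53 in rat 1, and the mean was -0.58 without that rat. The adjusted p was 0.0570 without rat 2 and ran up to 0.958 over the other settings tried.

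Ndufc2, a subunit of the same region, gave the most even difference there. It read 1126.7, 1245.7 and 1106.2 in OD and 346.6, 498.3 and 667.0 in OS, so every OS value lay below every OD value, at -1.22 ± 0.47 (limma adjusted p = 0.744). Its OS values in rats 1 and 2 were under the background limit, which makes the size uncertain.

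Single low arrays set the means of the next genes. Ndufc1, the partner of Ndufc2, read 469.8, 1273.3 and 1567.4 in OD and 535.4, 27.7 and 1006.8 in OS (-1.78 ± 2.72, limma adjusted p = 0.732). Only OS of rat 2 was below the limit, and without rat 2 the mean was -0.22. Ndufa8, a subunit of the intermembrane face, read 447.7, 842.0 and 927.8 in OD and 25.8, 853.0 and 585.4 in OS (-1.37 ± 1.85, limma adjusted p = 0.799), where OS of rat 1 was the low array; without rat 1 the mean was -0.32. Ndufa3 had the same shape, with 138.1 in OS of rat 1 against 1737.3 in its OD, and a mean of -0.93 that became 0.36 without rat 1. Ndufa11, with values of 80.8, 188.2 and 176.2 in OD and 45.5, 24.8 and 27.4 in OS, was not above background on any array. Ndufa13, also known as GRIM-19, was the only gene of the group with a higher mean in OS, at 0.26 ± 0.89.

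The distal part, which holds the Ndufb subunits at the far end of the membrane arm, had 5 of 11 genes lower in OS in all 3 rats (13.8% of all genes). Its means were less one-sided than that count, with 6 of 11 lower (54.5%, against 50.7% of all genes) and a median of -0.41. Ndufb2 read 1513.7, 1605.4 and 3476.3 in OD and 758.5, 32.2 and 1551.9 in OS. It was lower in OS in 3 of 3 rats, at -2.40 ± 2.31, with the smallest adjusted p of the family (limma, 0.394; 0.103 to 0.953 over the other settings). OS of rat 2 alone was below the background limit, and without rat 2 the mean was -1.07.

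Ndufb3, Ndufb4 and Ndufb11 exceeded the background limit on all 6 arrays. Ndufb3 read 3000.3, 1933.9 and 5374.6 in OD and 1469.7, 1763.3 and 2723.5 in OS, lower by about the same amount in rats 1 and 3 and hardly in rat 2 (-0.71 ± 0.50, limma adjusted p = 0.796). Ndufb4 read 828.9, 2044.5 and 1436.8 in OD and 725.1, 603.1 and 1056.1 in OS (-0.79 ± 0.83, limma adjusted p = 0.811), with rat 2 the most apart. Ndufb11, another X-linked subunit, read 1006.3, 1388.2 and 1452.7 in OD and 836.0, 811.3 and 522.1 in OS, where the groups did not overlap (-0.82 ± 0.60, limma adjusted p = 0.809).

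Ndufb10 was too dim to be tested but was lower in OS of every rat: it read 396.1, 756.8 and 591.2 in OD, all above background, and 24.0, 19.1 and 272.1 in OS, all below it. Taken against the background limit in place of the OS values, OD was at least 1.25-fold higher as a mean over the rats, but in rat 1 the OD value did not exceed the limit of the OS array. Ndufb1 went the other way on average, with 2615.1, 537.5 and 1617.3 in OD and 1098.8, 3804.5 and 2322.0 in OS (0.69 ± 2.02, limma adjusted p = 0.840), although rat 1 was lower in OS and the mean was -0.36 without rat 2, whose OD value was below the limit. Ndufb9 read 473.4, 1251.0 and 15.5 in OD and 292.9, 503.4 and 633.8 in OS, so that its mean of 0.81 ± 3.10 (limma adjusted p = 0.900) came from 1 low OD array; without rat 3 it was -0.98. That OD value and OS of rats 1 and 2 were below the limit. Ndufb8 lay between 30.8 and 59.8 on all arrays, below background, and its order between eyes carries no level. Ndufb5, at 0.04 ± 1.65, and Ndufb7, at 0.09 ± 0.88, had rats of both directions. So had Ndufb6, which was below the limit on all 3 OS arrays.

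**Figure D3:**
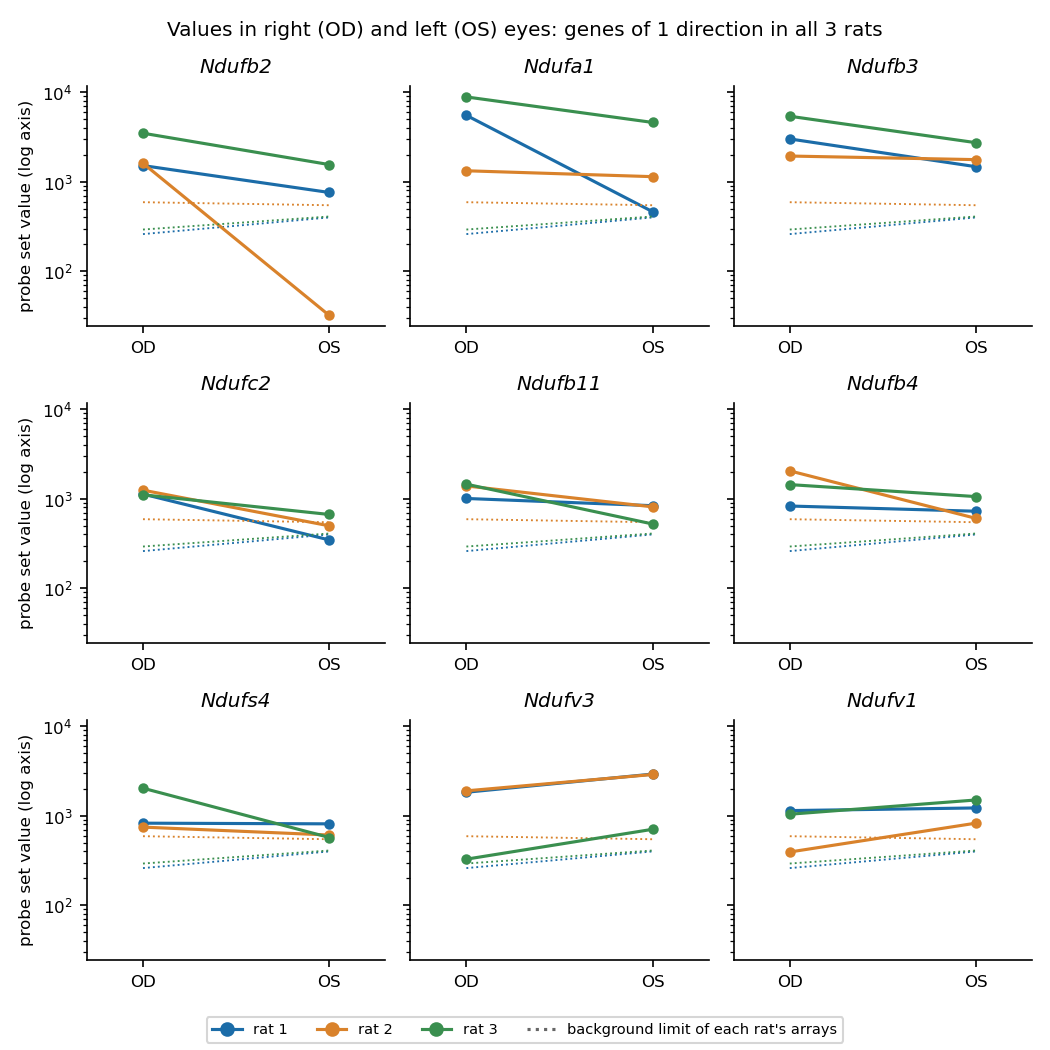
Lines join the right (OD) and left (OS) eye of each rat for 9 genes that kept 1 direction in all 3 rats (y axis, probe set value on a log axis; dotted lines, background limits of the same arrays). Ndufb2 in rat 2 and Ndufa1 in rat 1 show the steepest lines, Ndufv3 and Ndufv1 are higher in OS, and the other genes differ by smaller steps.

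Ndufab1, the mitochondrial acyl carrier protein, which sits in both arms and also serves fatty acid and lipoate synthesis, exceeded the limit only in OS of rat 3, at 577.6; its other 5 values lay between 30.3 and 191.7. The 6 assembly factors, which build the complex and leave it, showed no gene of 1 direction in all 3 rats. Ndufaf1, a chaperone of the membrane arm, read 558.5, 145.8 and 49.8 in OD and 25.0, 473.3 and 301.1 in OS. It was highest in OD of rat 1 and in OS of rats 2 and 3, but no OS value exceeded the background limit. Ndufaf7, a methyltransferase, read 624.0, 669.7 and 338.5 in OD and 81.3, 397.2 and 1146.9 in OS (-0.58 ± 2.22, limma adjusted p = 0.919), and its other probe set, at 0.59 ± 2.23, gave the opposite sign. Ndufaf8 was the steadiest, above the limit on all 6 arrays at 0.03 ± 0.38. Ndufaf3, Ndufaf4 and Ndufaf5 had means between -1.17 and -0.00 and SDs between 1.19 and 2.30.

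The names also hold Ndufa4, now placed in complex IV, and its paralogue Ndufa4l2, a gene known to be induced by low oxygen. Neither had 1 direction over rats. Ndufa4 was below the limit on all 3 OS arrays, and Ndufa4l2 differed by 0.45 ± 1.58 (limma adjusted p = 0.948).

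**Figure D4:**
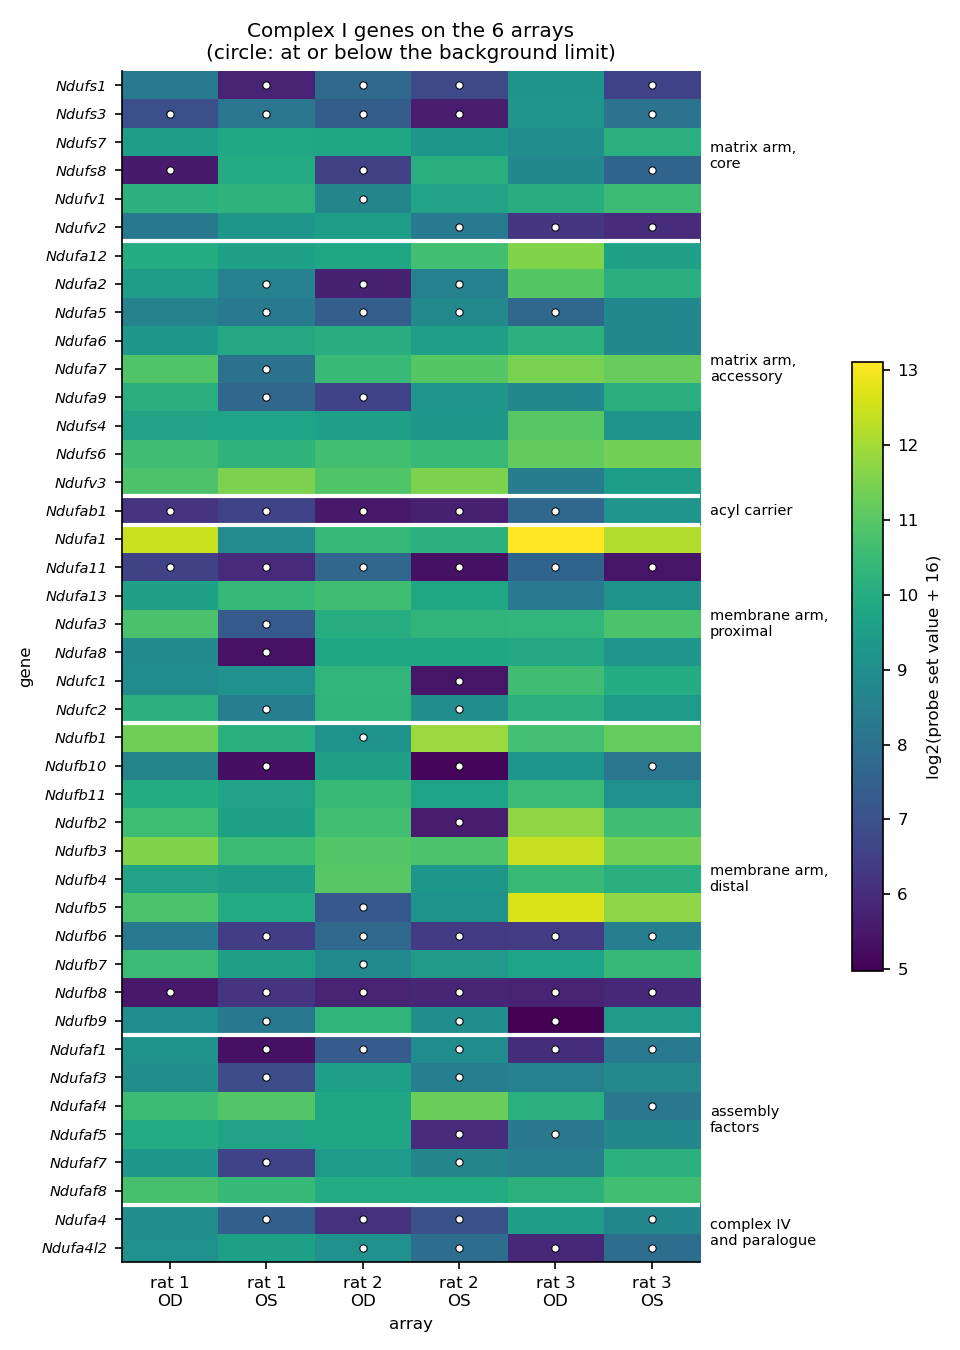
Colours give log2(value + 16) of each complex I gene (rows, in blocks by place in the complex) on the 6 arrays (columns); circles mark values at or below the background limit. From rat 1 to rat 3, OD holds 5, 17 and 10 of the circles and OS 19, 20 and 12, and several rows have a single dark cell, such as Ndufa8 in OS of rat 1 and Ndufc1 and Ndufb2 in OS of rat 2.

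Low single values were spread over the arrays. The lowest of a gene's 6 values fell in OS of rat 1 for 12 genes, in each eye of rat 2 for 9, in each eye of rat 3 for 5 and in OD of rat 1 for 2. Of the 10 genes below the limit on exactly 1 array, that array was OS of rat 1 for 3, OD of rat 2 for 4, OS of rat 2 for 2 and OS of rat 3 for 1. Leaving out each rat in turn turned the sign of the mean for 23 of the 42 genes and kept it for 19. Levels also differed between animals: the mean of both eyes was highest in rat 3 for 25 genes, in rat 2 for 10 and in rat 1 for 7, and lowest in rat 2 for 20.

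The genes with the promoter elements shown above are given by their means. Of the 10 with the YY1 sequence, 4 had a lower mean in OS, where the share over all genes was 50.7%. In all 3 rats Ndufs4 was lower and Ndufb8, which was below background, was higher (13.8% and 14.0% of all genes). The median was 0.16 over a range from -0.93 for Ndufa3 to 0.49 for Ndufa9. All 3 genes with the NRF1 sequence had a mean below 0, where 50.7% of all genes had a lower mean in OS. Ndufaf5 stood at -1.17 ± 2.30, and at 0.14 without rat 2. Ndufaf4 hardly differed on average, at -0.00 ± 1.73, and stood at 0.94 without rat 3. The third, Ndufa11, was lower in all 3 rats but below background. Of the 3 genes with CCGGAAGT, 1 had a lower mean in OS, namely Ndufs1, with no OS value above the background limit. Ndufb7 and Ndufa13 had means of 0.09 and 0.26.

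Other genes of complex I assembly, outside the Nduf names, were measured for 12 of the 13 listed. No gene passed the limma threshold (smallest limma adjusted p = 0.730), and 0 had an unadjusted limma p under 0.05, where 6.91% of all tested probe sets passed. In all 3 rats 3 of the 12 were lower in OS and 3 higher, where the shares over all genes were 13.8% and 14.0%. The lower were Dmac1, Nubpl and Tmem70, none of them above the background limit on any OS array. Nubpl, which delivers iron-sulfur clusters to complex I, read 371.7, 334.9 and 448.8 in OD and 22.4, 55.8 and 212.9 in OS. The higher were Lyrm2, Dmac2 (1.54 ± 1.78) and Ecsit (1.45 ± 1.77). These sizes are uncertain, because OD of Dmac2 in rat 2 and of Ecsit in rat 3 was below the background limit. Lyrm2 read 241.7, 46.2 and 360.0 in OD and 812.5, 602.6 and 732.3 in OS, with OD of rats 1 and 2 below the limit. Every OS value lay above every OD value for Lyrm2 and Dmac2 and below it for Nubpl and Tmem70. The shares over all genes were 5.16% above and 5.30% below.

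Complexes II to V, the rest of the chain and ATP synthase, had lower values in OS in rats 1 and 3 but not in rat 2. The 45 nuclear genes were taken by symbol and hold the pseudogene Cox6c-ps1, which was above the background limit on no array. Of the 45, 33 (73.3%) had a lower mean in OS, where the share over all genes was 50.7%. The median was -0.53, with -0.73, 0.16 and -0.51 in rats 1 to 3. In all 3 rats 15 (33.3%) were lower and 5 (11.1%) higher, where the shares over all genes were 13.8% and 14.0%. Of the 34 tested none passed (limma, smallest adjusted p = 0.306), and 8 were lower and 0 higher at an unadjusted p under 0.05, where 4.31% of all tested probe sets were lower and 2.60% higher. The 16 genes with Atp5 names held 8 of the 15, among them the ATP synthase inhibitor Atp5if1 and the catalytic beta subunit Atp5f1b. Atp5f1b read 1241.8, 1186.7 and 2369.5 in OD and 102.8, 448.4 and 219.5 in OS (limma adjusted p = 0.306), and as no OS value reached the background limit, no size is given. Complex I and these complexes were not tested against each other. Among 18 genes of mitochondrial biogenesis and mass 2 were lower and 1 higher in all 3 rats (13.8% and 14.0% of all genes). Their median was -0.14. Nrf1, whose product binds the NRF1 sequence, was the higher (0.95 ± 0.41, limma adjusted p = 0.771), and Tomm20, an import receptor of the outer membrane, was lower at -2.14 ± 1.44 (limma adjusted p = 0.290), a size that is uncertain because OS of rat 2 was below the background limit. Vdac1, the main pore of the outer membrane, differed by -0.20 ± 0.53 (limma adjusted p = 0.939). The Atp5f1b and Tomm20 values stood beside the same markers and controls as those of complex I, and the part of these was not tested.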

How the data were processed

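Per the labels' protocols, captured RNA (PicoPure) went through RiboAmp HS linear amplification, and 10 µg of product with biotin was hybridised to each Affymetrix array (1 colour). The submitters' processing notes name GCOS without a version. The deposited intensity values are linear and come without detection calls. With 2% trimmed at both ends, every array averaged 500.1, so the values were used as already scaled to a common target, which hides any difference in total RNA, and were not normalized again.

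The table held 31099 probe sets; 57 controls stayed out, and 20826 of the others had 1 gene symbol, 436 several and 9780 none. All 42 symbols matched the reference gene table. Values were taken as log2(value + 16), which understates differences of dim genes. The brighter part of the table by mean log2 (from its median up) was tested with limma 3.58.1 in R 4.3.3 (rat as a fixed block, eBayes with trend, two-sided, Benjamini-Hochberg over all 15521). The code was checked on simulated data with independent normal noise and no background floor. That check cannot vouch for the fit where single arrays fell to background. In the fit of the real data the residual degrees of freedom were 2 and the prior ones 19.4. The fit was not used for medians and counts over members. The eyes are paired because they come from 1 animal, as the design text gives it; deviations from the group means correlated at 0.109, 0.122 and 0.326 between the eyes of rats 1 to 3, across probe sets, and at -0.20 to 0.104 between eyes of different rats, so rats 1 and 2 hardly stand out. The number of arrays limits precision.

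The members and lists were chosen with earlier results of these data known. Genes named with every array's value were the core subunits, the 6 of smallest p in each direction, the 4 with the highest and the 2 with the lowest mean, the 4 of widest spread and those whose probe sets differ in sign. Ndufs4, Ndufb4, Ndufb10, Ndufb11, Ndufa3, Ndufab1, Ndufaf8 and Ndufa13, and the genes named outside the family, were singled out after their values were seen.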

Additional observations from a re-analysis of the deposited data

How the results depend on the processing

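All alternatives were planned. No complex I gene passed the threshold under any of the 15 alternatives; the smallest adjusted p of the family ran from 0.0570 without rat 2 to 0.953 without the replicate block, where 0 genes had an unadjusted p under 0.05. Over all probe sets tested, 2 passed. This became 0 for 7 settings, namely an offset of 1, quantile normalization, a filter at the 75th percentile, a filter at the background limit, no trend, a random replicate block and no replicate block. It became 1 under a robust prior, 7 under array weights, 9 under an offset of 64, 9 under no filter, and 18 to 59 when a rat was dropped. The median of complex I ran from -0.46 to 0.027 with 1 rat left out, the positive value being without rat 1; the genes lower in both remaining rats numbered 14 to 17, against 24.9% to 26.6% of all genes, and those higher 6 to 10, against 25.0% to 28.4%. Filters and model settings do not enter the median and these counts. Of 23 genes, 13 kept their sign under every alternative. Averaging probe sets gave 0.59 for Ndufa7, -0.58 for Ndufa9 and 0.0036 for Ndufaf7, and Ndufaf1 was -0.054 with an offset of 1 and -0.20 after quantile normalization. With 1 rat left out, Ndufa7 ran from -1.56 to 0.13, Ndufa9 from -0.56 to 1.96, Ndufaf1 from -1.11 to 1.93, Ndufaf7 from -1.72 to 0.49, Ndufb1 from -0.36 to 1.65, Ndufb9 from -0.98 to 1.85, Ndufs3 from -1.46 to 0.042, Ndufs6 from -0.27 to 0.041, Ndufs7 from -0.10 to 0.75 and Ndufv2 from -0.74 to 0.39. The cause was not tested. Signal over background limits the sizes: 30 of 42 genes fell to the limit or below on at least 1 array.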

Other observations

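Both probe sets assigned to several Nduf symbols stayed outside the family above, and their values are given here as they stand. The first, annotated to Ndufa10, a membrane arm subunit, and to the similar Ndufa10l1, read 2361.5, 2553.2 and 2072.5 in OD of rats 1 to 3 and 729.1, 1057.7 and 884.5 in OS. Every OS value lay below every OD value, with a difference of -1.38 ± 0.25 (log2, SD, n = 3; limma adjusted p = 0.581). The second, annotated to Ndufs5, another membrane arm subunit, and to a pseudogene of it, read 1341.7, 767.3 and 1127.4 in OD and 1057.5, 784.7 and 1211.0 in OS, a difference of -0.07 ± 0.24 (limma adjusted p = 0.989). Signals of these pairs of genes cannot be told apart on the array.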
